A study of Mus musculus with 24 samples.

Results

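The comparison set mature lung against lung at the height of septation: 4 arrays of whole lung from mice 6 weeks old against 5 arrays of whole lung at postnatal day 7. All animals were of the strain C57BL/6, with no genotype or treatment named in the labels, and each array is labelled as 1 biological replicate. Each array reads 650 names, of which 611 are mouse miRNAs and 39 belong to herpesviruses of mice, as 1-colour fluorescence. The members described here are the 315 of 611 mouse names that the scanner software flagged as detected on every array of at least 1 of the 2 ages. Of these, 256 were detected on all arrays of both ages, 53 on every day 7 array but not on every 6 week array, and 6 on every 6 week array but not on every day 7 array. The other 296 mouse names were left out, 256 of them detected on none of the 9 arrays. Other ages of the series (day 1, day 4 and day 14, 5 arrays each) enter through the shared estimate of the spread and where a course over age is given. They also enter the choice of miRNAs used for scaling, the floor and the choice of names tested. The word fetal in the series' title is at odds with its labels, all of which give postnatal ages; the labels were followed.

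A miRNA is a short RNA cut from a hairpin transcript. It guides a silencing complex to messages that pair with its seed, the stretch after its first base, and those messages are then translated less or decay faster. Septation is the step in which ridges of elastin and collagen made by mesenchymal cells divide the air sacs into alveoli, while mesenchyme, endothelium and epithelium still proliferate. By 6 weeks this growth has largely ended in mice.

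The mature sequences of the miRNAs that the results turn on are given first, from RefSeq with the build GRCm38.p6, 5′ to 3′, with the seed (bases 2 to 8) in capitals. Of the 315 members, 234 matched an entry of that table, 60 under the name on the array and 174 under the current name of the same arm (an asterisk on the array marks the minor arm of a hairpin). The first set shows the largest rises, 3 members of the miR-29 family that share a seed, with miR-29a at chr6:31062673-31062694, minus strand and miR-29c at chr1:195037600-195037621, plus strand.
miR-29a: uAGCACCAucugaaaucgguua
miR-29b: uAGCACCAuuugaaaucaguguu
miR-29c: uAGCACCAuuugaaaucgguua

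The second set shows the largest fall, miR-551b at chr3:29416879-29416899, plus strand, and large falls from the imprinted Dlk1-Dio3 region of chromosome 12. Those shown came from separate hairpins and shared no seed. The 38 matched members of the region, between positions 109585818 and 109743784, had 38 different seeds, and some of them were both arms of the same hairpin.
miR-551b: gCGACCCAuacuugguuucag
miR-431: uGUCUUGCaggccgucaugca
miR-127: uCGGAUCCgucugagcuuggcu
miR-376a: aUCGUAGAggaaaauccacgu
miR-379: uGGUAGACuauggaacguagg
miR-410: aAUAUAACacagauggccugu

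The third set shows 3 seeds that had both a rise and a fall among their members. In each pair the first miRNA was higher and the second lower at 6 weeks. Their places are chr11:70235062-70235082, plus strand for miR-195, chrX:53054306-53054327, minus strand for miR-322, chrX:53053315-53053338, minus strand for miR-351, chr9:51103610-51103632, minus strand for miR-34b-5p and chr13:113037549-113037570, plus strand for miR-449a, whereas miR-125b-5p has 2 loci in the table.
miR-195: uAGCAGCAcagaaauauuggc
miR-322: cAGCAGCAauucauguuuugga
miR-125b-5p: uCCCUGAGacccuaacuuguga
miR-351: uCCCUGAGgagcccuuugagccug
miR-34b-5p: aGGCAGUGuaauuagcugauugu
miR-449a: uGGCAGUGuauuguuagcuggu

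The fourth set shows 2 seeds whose matched members were all lower at 6 weeks, that of miR-17 with 5 members on chromosomes 14, 5 and X, and that of miR-181 with 4.
miR-17: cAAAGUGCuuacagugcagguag
miR-20a: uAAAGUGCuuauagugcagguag
miR-20b: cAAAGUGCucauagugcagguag
miR-93: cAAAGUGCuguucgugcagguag
miR-106b: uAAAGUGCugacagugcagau
miR-181a: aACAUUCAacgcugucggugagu
miR-181b: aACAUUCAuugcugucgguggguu
miR-181c: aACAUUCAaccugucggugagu
miR-181d: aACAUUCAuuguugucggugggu
Members with close sequences can share signal between probes, so that their calls may not be independent; this was not tested.

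The arrays of the 2 ages differed in how much they detected. The 6 week arrays detected 293.5 ± 16.6 mouse miRNAs (SD, n = 4; 271 to 311) and the day 7 arrays 325.8 ± 9.09 (SD, n = 5; 315 to 337), with no overlap (exact permutation test, two-sided p = 0.0159, the smallest that 4 against 5 arrays allow). Before scaling, the 75th percentile of the signal over the 226 miRNAs detected on all arrays of the series was 1953 ± 692 intensity units at 6 weeks (SD, n = 4; 1078 to 2564) and 1504 ± 161 at day 7 (SD, n = 5), an overlap between the ages (exact permutation test, two-sided p = 0.238). The dimmest of the 9 arrays was replicate 4 of 6 weeks, which also detected the fewest miRNAs (271) and calls of named miRNAs that change without it are given beside their values. Replicate 5 of day 14 stood nearer to day 7 than the other day 14 arrays did, with miR-551b at 10.32 against 6.31 to 6.64 on the other 4. It enters neither mean of the comparison. Like all arrays of the series, it enters the spread, the choice of miRNAs used for scaling, the floor and the choice of names tested. Between arrays of 1 age the log2 values correlated at 0.969 to 0.996 at 6 weeks and 0.9904 to 0.998 at day 7, against 0.876 to 0.932 between the ages. Each of the 3 slides carried arrays of both ages, but of these 9 arrays slide 3 held only replicate 4 of 6 weeks and replicate 3 of day 7.

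Between day 7 and 6 weeks, 182 of the 315 members changed, 53 upwards and 129 downwards (limma, Benjamini-Hochberg adjusted p under 0.05), and 133 did not pass the test. Over all 322 names tested, members or not, 57.1% were called, 16.5% higher and 40.7% lower at 6 weeks, so the members are nearly the whole table and their share is that of the table. Changes of at least 2-fold numbered 106, of which 19 were rises and 87 falls. Where a count of groups that do not overlap is given, it is read against 52.5% of all names tested, 15.8% higher and 36.6% lower; of the members, 167 did not overlap. The plot of levels at both ages shows every member.

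**Figure D1:**
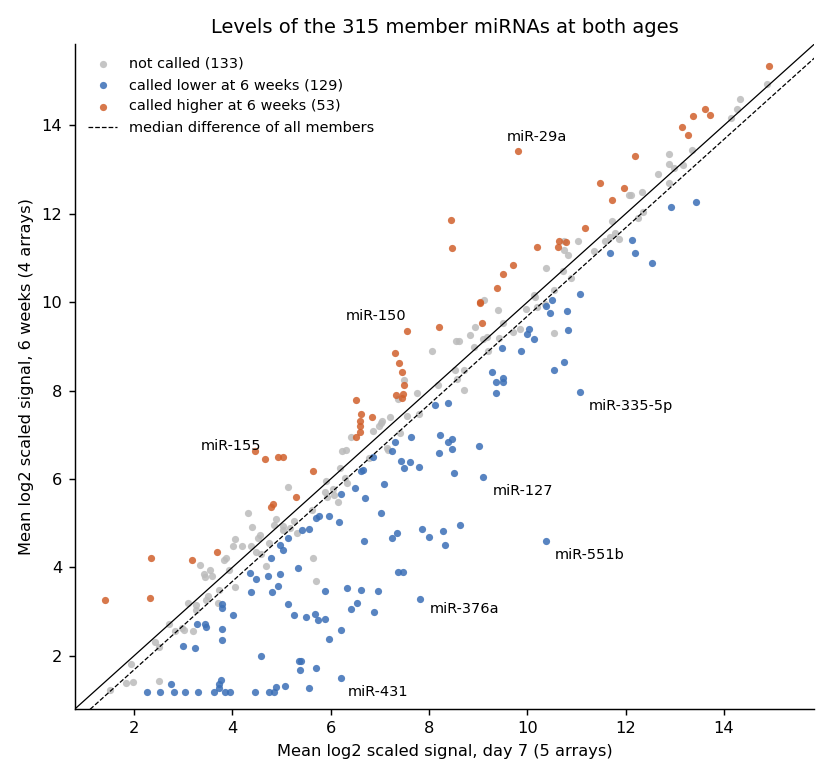
Each point is 1 of the 315 members, with its mean log2 scaled signal over the 5 day 7 arrays on the horizontal axis and over the 4 arrays of 6 weeks on the vertical axis; colours give the 53 called higher, 129 called lower and 133 not called. The solid line marks equal levels and the dashed line the median difference of all members, -0.32; miR-29a lies farthest above the lines and miR-551b farthest below.

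The split between rises and falls depended on how arrays were put on a common scale. The median difference over all members was -0.32 on the log2 scale when arrays were scaled on the miRNAs detected everywhere. It was 0.30 when they were scaled on the 75th percentile of all names (114 higher, 80 lower), 0.08 with median scaling (90 and 92), 0.13 with quantile normalization (100 and 92), -0.02 without scaling (63 and 77) and 0.16 in the authors' deposited log2 table (102 and 91). Small differences therefore have a direction only relative to the median, and lists are set against -0.32 in what follows. Without replicate 4 of 6 weeks the median was -0.49, with 43 higher and 141 lower. Of the 182 called members, 165 had the same sign within each of the 3 slides, in which the median of all members was -0.60, -0.38 and 0.00. The last value sets only the dim replicate 4 of 6 weeks against replicate 3 of day 7. The 53 members detected throughout only at day 7 entered because they were high there, so their 44 falls are a description. Among the 256 detected on all arrays of both ages, 50 were higher and 85 lower, with a median of -0.20. The 59 that qualified through 1 age alone had a mean log2 level at that age of 1.52 to 8.32 (median 4.37), and the 12 names that missed the rule by 1 array had 1.74 to 3.66 (median 2.93). Among cell type markers, miR-126-3p (endothelium), miR-200c (epithelium) and miR-143 (mesenchyme and smooth muscle) were each detected on all 9 arrays. Their mean log2 levels were 15.34 ± 0.21, 10.78 ± 0.46 and 11.12 ± 0.11 at 6 weeks (SD, n = 4). These cell types are not particular to lung, so the markers do not check the tissue label. In a whole organ, fewer cells of a type and less RNA per cell cannot be told apart, and this holds for every result that follows.

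**Figure D2:**
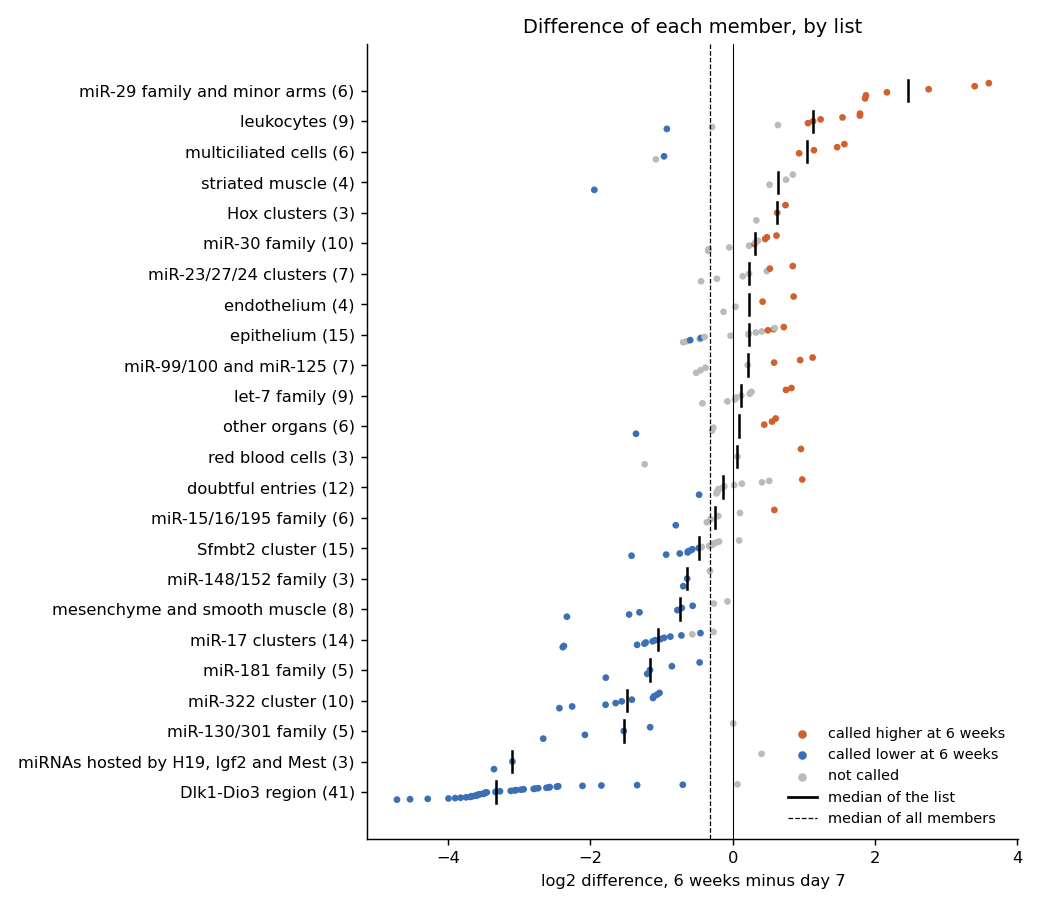
Each point is the log2 difference (6 weeks minus day 7) of 1 member, grouped by list with the number of members in brackets and coloured by its call. Short black bars are list medians, which run from -3.33 for the Dlk1-Dio3 region to 2.46 for the miR-29 family, and the dashed line is the median of all members, -0.32.

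The miR-29 family, which holds back messages for collagens, elastin and fibrillin, rose as a whole. All 6 of its members, the 3 main arms and their 3 minor arms, were higher at 6 weeks, with a median difference of 2.46 against -0.32 over all members. On the day 7 arrays miR-29a had log2 levels of 9.96, 9.78, 9.74, 9.75 and 9.82, and on the 6 week arrays 13.48, 13.44, 13.39 and 13.33. The ages were far apart beside the spread within each. Its rise of 3.598 ± 0.24 on the log2 scale was 12.1-fold (limma, adjusted p = 2.23e-11). For miR-29c the levels were 8.63, 8.49, 8.42, 8.34 and 8.41 at day 7 and 11.94, 11.99, 12.09 and 11.398 at 6 weeks, with no overlap and replicate 4 lowest, a rise of 3.398 ± 0.34 (adjusted p = 1.16e-08). The third main arm, miR-29b, was at 8.82, 8.81, 8.68, 7.99 and 8.02 at day 7 and 11.53, 11.76, 11.84 and 9.73 at 6 weeks. It rose by 2.75 ± 0.66 (adjusted p = 0.00116), and here the dim replicate 4 lay well below the other 3 arrays while still above day 7. The minor arms, usually degraded after the hairpin is cut, also rose: miR-29c* by 2.17, miR-29b* by 1.87 and miR-29a* by 1.86, the last detected on 1 of 5 arrays at day 7. After background correction by normexp on the spot medians the differences of miR-29a* and miR-29b* were -0.13 and -0.07. That correction adds an offset of 50 intensity units to each spot, which shrinks the log2 differences of dim miRNAs before the arrays are scaled. The parts of the offset and of the later scaling in these values, whose sign turned, were not tested. Since miR-29a and miR-29b come from a chromosome 6 cluster and miR-29b and miR-29c from one on chromosome 1, both hairpin clusters are represented among the rises.

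Other rises of the largest 15 came from leukocyte and multiciliated cell lists, described with their lists, and from miR-22 and miR-338-3p. Both arms of miR-22, a miRNA that acts on growth factor signalling in heart and muscle, rose: miR-22 by 1.22 ± 0.14 (adjusted p = 5.94e-08) and miR-22* by 1.28 ± 0.17 (adjusted p = 6.23e-07). The level of miR-22 was 11.46, 11.38, 11.41, 11.69 and 11.48 at day 7 and 12.72, 12.54, 12.54 and 13.01 at 6 weeks, without overlap. The other, miR-338-3p, which lies in an intron of the neuronal kinase gene Aatk, rose by 1.23 ± 0.25 (adjusted p = 0.000182).

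The largest fall of any member was that of miR-551b. On the day 7 arrays it stood at 10.47, 10.63, 10.47, 10.34 and 9.98 and on the 6 week arrays at 5.05, 4.91, 5.06 and 3.34. The ages were far apart, and the dim replicate 4 was the lowest. It fell by 5.79 ± 0.64 on the log2 scale, or 55.3-fold (limma, adjusted p = 4.62e-08). From day 1 to day 7 it had risen by 1.89 (adjusted p = 0.0407).

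The Dlk1-Dio3 region, an imprinted stretch of chromosome 12 whose miRNAs are made from the maternal copy and are abundant in embryonic tissue and in muscle and brain, gave most of the other large falls. Of its 75 names on the array 41 were members, and 40 of these were lower at 6 weeks, none higher, with a median of -3.33 against -0.32 over all members. The list is not free of the selection by detection, since 30 of its members were detected throughout at day 7 only. Over the 11 detected on every array of both ages the median was -3.12, and with the 18 members that no 6 week array detected put at their bounds it was -3.33. The median stayed between -3.15 and -2.56 under the other scalings and within slides between -3.59 and -3.22, but was -0.97 after normexp on the spot medians, with 12 members called lower. On the 75th percentile of all names 39 were lower and 1 higher. The offset of normexp shrinks the differences of dim miRNAs, and its part in the median of -0.97 was not tested.

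Among the members of that region still measured on all 9 arrays, miR-127, which is processed from a transcript antisense to the growth gene Rtl1, had day 7 levels of 8.99, 9.02, 8.86, 9.23 and 9.43 and 6 week levels of 6.58, 5.597, 5.43 and 6.56. The ages lay apart, with replicates 1 and 4 of 6 weeks above the other two. It fell by 3.06 ± 0.27 (adjusted p = 9.86e-10). Farther along the region, miR-379 fell by 3.67 ± 0.24 (adjusted p = 1.35e-11), from 8.54, 8.58, 8.59, 8.703 and 8.75 to 5.86, 4.71, 4.42 and 4.86. Its fall exceeded that of miR-127 in value, a difference that was not tested. A neighbour, miR-376a, a miRNA often edited at its seed, was at 7.99, 8.07, 7.88, 7.55 and 7.62 at day 7 and 4.603, 3.43, 3.51 and 1.61 at 6 weeks. It was detected on 3 of 4 arrays at 6 weeks and fell by 4.53 ± 0.59 (adjusted p = 5.33e-07), with the lowest value again on the dim array.

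Several members of the region went below detection. At day 7 miR-431, which lies beside miR-127 and regulates muscle stem cells, had levels of 6.12, 6.14, 6.08, 6.27 and 6.403, and no 6 week array detected it. It was at least 25.5-fold lower at 6 weeks (adjusted p = 2.12e-12). The bounds were at least 18.9-fold for miR-409-5p, 15.9-fold for miR-411*, 13-fold for miR-381, 12.9-fold for miR-369-5p, 12.3-fold for miR-380-3p and 11.7-fold for miR-382*, each detected on 5 of 5 day 7 arrays and 0 of 4 at 6 weeks. Others remained detected on part of the 6 week arrays: miR-410 fell by 3.899, miR-136 by 3.82, its other arm miR-136* by 3.59 and miR-434-5p by 3.62. Detected on all 9 arrays, miR-300 fell by 3.57. The 1 member that was not called, miR-494, had a difference of 0.07 ± 0.28 (adjusted p = 0.832). Its arrays overlapped, with 9.03, 9.18, 8.75, 9.12 and 9.45 at day 7 and 8.999, 8.61, 9.08 and 9.99 at 6 weeks. By chromosome, 39 of the 44 matched members with a single locus on chromosome 12 were lower and 1, the epithelial miR-203 outside the imprinted region, was higher.

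Another imprinted gene, Mest, carries miR-335 in an intron. Both arms fell. The level of miR-335-5p was 11.04, 11.04, 10.99, 11.19 and 11.09 at day 7 and 8.103, 7.79, 7.98 and 8.04 at 6 weeks, with no overlap. It fell by 3.09 ± 0.19, or 8.54-fold (adjusted p = 8.76e-12), and miR-335-3p fell by 3.35 ± 0.29 (adjusted p = 6.87e-10), the latter detected on 3 of 4 arrays at 6 weeks. Another member of the list, which covers the host genes H19, Igf2 and Mest, was miR-483 from Igf2; it had a difference of 0.40 ± 0.26 (adjusted p = 0.201), and -0.21 after normexp. The list had 0 of 3 members higher and 2 lower, with a median of -3.09. Under each of the 5 other scalings, and with brightness as a covariate, miR-483 was called higher, by 0.60 to 1.31.

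The clusters known from proliferating cells were lower at 6 weeks. In the miR-17 clusters on chromosomes 14, 5 and X, which are driven by Myc and E2F factors and hold back inhibitors of the cell cycle, 12 of 14 members fell and none rose, with a median of -1.05. The level of miR-18a was 8.55, 8.58, 8.44, 8.56 and 8.44 at day 7 and 6.57, 6.23, 6.12 and 5.57 at 6 weeks. The 2 ages did not overlap, and miR-18a fell by 2.39 ± 0.28 (adjusted p = 8.51e-08). A member of the same transcript, miR-17, fell by 1.13 ± 0.13 (adjusted p = 1.39e-07), and miR-106b*, the minor arm from the chromosome 5 cluster, by 2.37 ± 0.27 (adjusted p = 7.73e-08), to the floor on 3 of 4 arrays. The last hairpin of the chromosome 14 cluster, miR-92a, had a difference of -0.27 ± 0.27 (adjusted p = 0.403), with a sign that depended on the scaling. The median of the list was negative under every other scaling tried, from -0.75 to -0.43. Under these scalings 6 to 9 members were lower and none higher, and after normexp 7 were lower.

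The miR-322 cluster lies on the X chromosome, and its miRNAs restrain the cell cycle and are induced in differentiating muscle. All 10 of its 10 members fell, with a median of -1.49 (-1.19 to -0.86 under the other scalings). Under the other scalings 6 to 10 members of the cluster were lower and none higher, and after normexp 4 were lower. Its member miR-322 was at 12.46, 12.55, 12.56, 12.595 and 12.48 at day 7 and 11.098, 10.96, 10.86 and 10.61 at 6 weeks. The ages did not overlap. It fell by 1.65 ± 0.19 (adjusted p = 8.39e-08). Next to it, miR-503 fell by 2.26 ± 0.37 (adjusted p = 1.34e-05) and miR-351 by 2.44 ± 0.30 (adjusted p = 1.99e-07).

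Further families had falls and no rise under the scaling used here. The family of miR-130 and miR-301, which acts on TGF-beta and PPAR-gamma signalling in lung vessels, fell in 4 of 5 members with a median of -1.53 (4 lower and 1 higher with quantile normalization and in the deposited table). Of these miR-301b was at least 6.13-fold lower, detected on 0 of 4 arrays at 6 weeks, miR-301a fell by 2.08 ± 0.31 (adjusted p = 4.31e-06) and miR-130a by 1.16 ± 0.13 (adjusted p = 5.94e-08). The level of miR-130a was 13.37, 13.402, 13.39, 13.58 and 13.38 at day 7 and 12.36, 12.2005, 12.11 and 12.38 at 6 weeks, again apart. All 5 members of the miR-181 family, which tunes signalling thresholds in lymphocytes and vessels, were lower, with a median of -1.16 (3 or 4 lower and none higher under the other scalings). Among them miR-181d, at 8.44, 8.38, 8.35, 8.62 and 8.498 at day 7 and 6.54, 6.48, 6.52 and 7.15 at 6 weeks, fell by 1.78 ± 0.16 (adjusted p = 9.5e-10). For miR-181a the difference was -0.47 ± 0.19 (adjusted p = 0.0367). Its call was lost when replicate 1, 2 or 3 of 6 weeks or 2, 4 or 5 of day 7 was left out (adjusted p from 0.0563 to 0.144), and its value was 0.16 on the 75th percentile of all names. The family of miR-148 and miR-152, which targets the DNA methyltransferase Dnmt1, fell in 2 of 3 members (miR-152 by 0.64 ± 0.16, adjusted p = 0.00178; miR-148a by 0.70 ± 0.25, adjusted p = 0.0203, and 0.0770 without replicate 4 of 6 weeks). These falls rested on the scaling: on the 75th percentile of all names 1 member was higher and 0 lower, with a median of -0.02, without scaling none was called, and with median scaling 1 was lower.

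Some seeds split. Of the 13 seeds with 3 or more matched members, 3 had both a called rise and a called fall, those of the third set of sequences. For each, the largest called rise was set against the largest called fall as a difference of log2 levels within each array. Scaling by 1 factor per array cannot move this measure, whereas quantile normalization can. The pairs were chosen for opposite calls on these same arrays, so a rise of the difference follows from the choice and no test is given. The seed AGCAGCA joins miR-195, which arrests the cell cycle and lies on chromosome 11, and miR-322 on the X. Within arrays miR-195 stood -0.80 ± 0.07 log2 units from miR-322 at day 7 (SD, n = 5) and 1.43 ± 0.31 at 6 weeks (SD, n = 4), a difference of 2.23. Alone, miR-195 rose by 0.58 ± 0.14 (adjusted p = 0.000847). Signals of different probes cannot be read as amounts, so only the change of the difference is described.

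The seed CCCUGAG joins miR-125b-5p, a miRNA of stem and mesenchymal cells, and miR-351 of the miR-322 cluster. Here the difference within arrays went from 6.30 ± 0.13 (SD, n = 5) to 9.86 ± 0.22 (SD, n = 4), by 3.56. The level of miR-125b-5p rose by 1.12 ± 0.26 (adjusted p = 0.000729). The seed GGCAGUG joins miR-34b-5p and miR-449a, both of multiciliated cells, whose difference went from -0.42 ± 0.14 (SD, n = 5) to 1.68 ± 0.29 (SD, n = 4), by 2.11. In all 3 pairs every 6 week array lay above every day 7 array, as a description of pairs chosen that way. The seeds AGCACCA (miR-29), AAAGUGC (miR-17) and ACAUUCA (miR-181) moved in 1 direction, with 3 of 3 matched members higher, 5 of 5 lower and 4 of 4 lower.

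**Figure D3:**
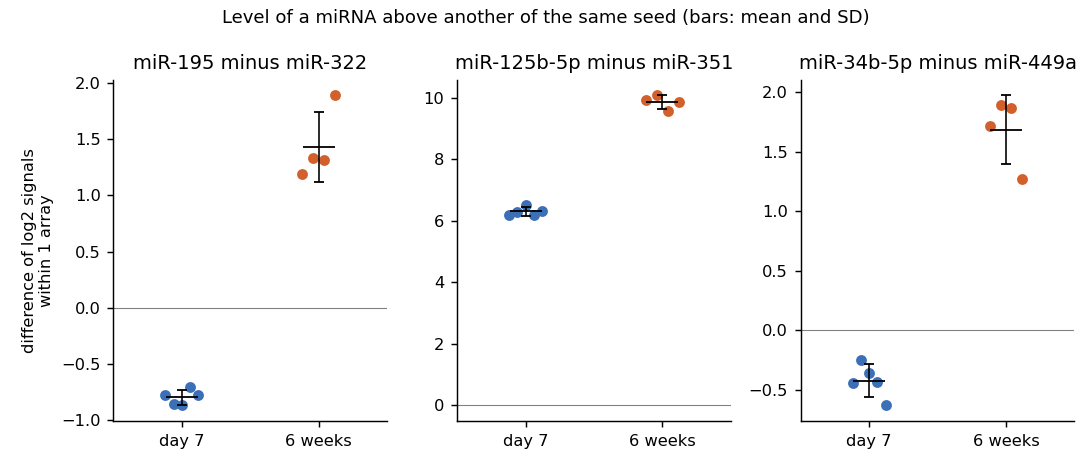
Difference of the log2 scaled signals of 2 miRNAs with the same seed within each array, for 5 day 7 arrays and 4 arrays of 6 weeks, with mean and SD as black bars. In each of the 3 pairs the difference was higher on every 6 week array, by 2.23, 3.56 and 2.11 on average.

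Leukocyte miRNAs were mostly higher at 6 weeks: 6 of 9 members of that list rose and 1 fell. The median of the list was 1.13 (1.05 to 1.75 under the other scalings). The other scalings called no member of this list lower, apart from 1 when the arrays were left unscaled. After normexp none was called lower, and with brightness as a covariate 1 was. The level of miR-150, a marker of mature lymphocytes, was 7.55, 7.43, 7.36, 7.81 and 7.64 at day 7 and 9.47, 8.796, 8.81 and 10.29 at 6 weeks, a rise of 1.79 ± 0.33 (adjusted p = 6.07e-05). The ages did not overlap, and the dim replicate 4 was the highest. For miR-155, induced in activated lymphocytes and macrophages, the levels were 4.84, 4.499, 4.801, 4.53 and 4.68 and 6.99, 6.02, 5.902 and 6.92, a rise of 1.79 ± 0.21 (adjusted p = 1.44e-07). The brakes on NF-kappaB signalling rose too, miR-146b by 1.54 ± 0.13 (adjusted p = 9.5e-10) and miR-146a by 1.13 ± 0.18 (adjusted p = 7.48e-06), with which it shares a seed. The myeloid miR-223 rose by 1.06 ± 0.17 (adjusted p = 8.67e-06). The pan-leukocyte miR-142-5p passed with 1.23 ± 0.50 (adjusted p = 0.0379; 0.0723 to 0.105 when replicate 1, 2 or 3 of 6 weeks or 4 or 5 of day 7 was left out), its other arm miR-142-3p did not (0.63 ± 0.61, adjusted p = 0.394), and miR-342-5p fell by 0.93 ± 0.29 (adjusted p = 0.00958).

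Of the multiciliated cell list, which serves the building of motile cilia in the airways, 4 of 6 members rose and 1 fell, with a median of 1.04 (1.09 to 1.66 under the other scalings). No fall was called on the 75th percentile of all names, with median scaling or without scaling, and 2 rises were called without scaling. The chromosome 9 pair rose: miR-34c* by 1.57 ± 0.26 (adjusted p = 1.99e-05), miR-34b-3p by 1.47 ± 0.32 (adjusted p = 0.000399), miR-34b-5p by 1.14 ± 0.41 (adjusted p = 0.0218) and miR-34c by 0.93 ± 0.27 (adjusted p = 0.00474). The levels of miR-34c* were 4.89, 4.79, 4.98, 4.57 and 5.45 at day 7 and 6.44, 6.25, 6.27 and 7.06 at 6 weeks. The ages were apart. The call of miR-34b-5p was lost when replicate 1, 2 or 3 of 6 weeks or 4 of day 7 was left out (adjusted p from 0.0608 to 0.0669). Within the 3 slides the median of the list was 1.16, 1.07 and -0.02, the last from replicate 4 of 6 weeks against replicate 3 of day 7 alone. From the chromosome 13 cluster in the same cells, miR-449a fell by 0.97 ± 0.35 (adjusted p = 0.0218; 0.0931 without replicate 4 of 6 weeks and 0.0522 without replicate 5 of day 7).

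The mesenchyme and smooth muscle list moved the other way, with 6 of 8 members lower, none higher and a median of -0.75 (-0.85 to -0.12 under the other scalings). The count depended on the scaling: 2 were lower on the 75th percentile of all names, 3 without scaling, 5 with median scaling, and 6 with quantile normalization, which also had 1 higher. MiRNAs from the transcript of miR-199a and miR-214, which is active in fibroblasts and in developing mesenchyme, were among them: miR-199a-5p fell by 1.46 ± 0.15 (adjusted p = 1.27e-08), miR-214 by 1.31 ± 0.35 (adjusted p = 0.00264) and miR-214* by 2.33 ± 0.25 (adjusted p = 2.33e-08). On the arrays miR-199a-5p went from 10.75, 10.83, 10.76, 10.86 and 10.94 to 9.41, 9.295, 9.32 and 9.47, with no overlap, whereas for miR-214 replicate 4 of 6 weeks was near the day 7 values. The smooth muscle miR-143 fell by 0.56 ± 0.16 (adjusted p = 0.00489), with a sign that turned under another scaling, and its neighbour miR-145 was at -0.07 ± 0.31 (adjusted p = 0.831).

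In the epithelium list 3 of 15 members rose and 2 fell, with a median of 0.22 that was -0.21 after normexp, where none was called. Under the other scalings rises alone were called: 9 on the 75th percentile of all names (median 0.85) and with median scaling (0.62), 6 with quantile normalization and in the deposited table, and 5 without scaling. The rises were miR-375 of neuroendocrine cells (0.72 ± 0.23, adjusted p = 0.00958), miR-203 (0.57 ± 0.16, adjusted p = 0.00309) and miR-200b, a guard of the epithelial state (0.49 ± 0.17, adjusted p = 0.0174), and without replicate 4 of 6 weeks the first and the last had adjusted p of 0.0569 and 0.0923. The falls, miR-182 by 0.60 ± 0.16 and miR-183 by 0.45 ± 0.15, turned sign under other scalings (to at most 0.33 and 0.21), and the call of miR-183 was lost without replicate 1 or 3 of 6 weeks or 4 of day 7 (adjusted p from 0.0545 to 0.0658). Of the endothelium list, 2 of 4 members rose, with a median of 0.23 that was 0.072 without replicate 4 of 6 weeks. Under the other scalings 1 to 3 rose and none fell. The endothelial miR-126-3p, needed for vessel integrity, rose by 0.42 ± 0.13 (adjusted p = 0.0103), and miR-222 by 0.86 ± 0.25 (adjusted p = 0.00576). The other arm, miR-126-5p, differed by -0.13 ± 0.30 (adjusted p = 0.727), with a sign that depended on the scaling. In the same list miR-221 was at 0.04 ± 0.19 (adjusted p = 0.859). For miR-222 replicate 4 of 6 weeks was the highest, at 8.36 against 7.00 to 7.44 on the other arrays of that age.

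Red cells and muscle can enter a lung sample with blood, heart or diaphragm, and their markers were read for both ages. Among red blood cell miRNAs 1 of 3 members rose, miR-486 by 0.96 ± 0.27 (adjusted p = 0.00425), while miR-451 was at 0.07 ± 0.24 (adjusted p = 0.812) and miR-144 at -1.24 ± 1.01 (adjusted p = 0.317). For miR-144 the 6 week arrays read 10.28, 10.27, 10.08 and 6.596, so that replicate 4 alone was low. The log2 of the summed signals of the red cell list, in which the brightest member weighs most, was 14.52 to 15.64 at 6 weeks and 14.75 to 15.14 at day 7. Of the striated muscle list 0 of 4 members rose and 1 fell, miR-208b by 1.94 ± 0.73 (adjusted p = 0.0271, 0.0739 without replicate 4 and 0.0593 without replicate 1 of 6 weeks). No member of that list was called under the other scalings or after normexp. The log2 of the summed signals of the list ran from 9.55 to 11.18 at 6 weeks and from 8.38 to 10.87 at day 7. Of 17 markers of other organs, 6 were members, 3 higher and 1 lower, with miR-192 at 0.60 ± 0.16 and miR-204 at -1.36 ± 0.26; the neural miR-124 and the liver's miR-122 were not members. The part of these cells in the other results was not tested.

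Under the scaling used here, some other lists of families and clusters had rises and no fall, and their counts depended on the scaling. The let-7 family, which opposes proliferation, was listed by its main arms alone, and all 9 of these names were members. Of them 2 rose, let-7b by 0.82 ± 0.23 (adjusted p = 0.00381) and let-7c by 0.75 ± 0.20 (adjusted p = 0.00255), and the median was 0.12 (0.048 without replicate 4 of 6 weeks, 0.17 without replicate 3). Among minor arms, which the list leaves out, let-7a* and let-7c-1* (-0.76) were called lower and let-7d* (-0.20) was not called. On the 75th percentile of all names 8 were higher and none lower (median 0.74), with median scaling 7, with quantile normalization 1 was higher and 2 lower, and 2 and 1 in the deposited table. The member let-7e was at -0.43 ± 0.18 (adjusted p = 0.0505; 0.00335 without replicate 4 of 6 weeks and 0.0467 without replicate 2 of day 7). In the miR-30 family, abundant in lung epithelium, 4 of 10 rose, led by miR-30b with 0.61 ± 0.19 (adjusted p = 0.00752), with a median of 0.31. Of that family 8 were higher on the 75th percentile of all names, 7 with median scaling and 1 after normexp, none lower. Its minor arm miR-30c-2* rose by 0.48 ± 0.15 (adjusted p = 0.00997; 0.31 and 0.0585 without replicate 4 of 6 weeks). In the group of miR-99, miR-100 and miR-125 3 of 7 rose and the median was 0.21 (-0.15 after normexp; 0.044 without replicate 1 and 0.38 without replicate 3 of 6 weeks), with miR-100, a regulator of mTOR, at 0.95 ± 0.19 (adjusted p = 0.000198). In the clusters of miR-23, miR-27 and miR-24 2 of 7 rose, miR-23a by 0.84 ± 0.21 and miR-24 by 0.52 ± 0.15, and the median of 0.23 was -0.06 with brightness as a covariate and 0.087 without replicate 3 of 6 weeks. Of those clusters 5 were higher on the 75th percentile of all names and none with quantile normalization. The Hox cluster miRNAs miR-10a and miR-10b, 2 of 3 members, rose by 0.74 ± 0.20 (adjusted p = 0.00283) and 0.62 ± 0.21 (adjusted p = 0.0127; 0.0622 without replicate 4 and 0.0772 without replicate 1 of 6 weeks).

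The family that holds miR-16 had 6 members, of which 1 rose, miR-195, and 1 fell, miR-15b* by 0.80 ± 0.20, and its median of -0.26 was positive under 3 other scalings (0.05 to 0.37). The Sfmbt2 cluster, a large rodent repeat of hairpins imprinted in the placenta, had 15 members of 39 names, of which 8 fell and none rose, with a median of -0.48 that became 0.41 with quantile normalization and in the deposited table and 0.06 on the 75th percentile of all names. These calls turned with the scaling: 8 were higher and 0 lower with quantile normalization and in the deposited table, on the 75th percentile of all names 2 and 0, 1 and 3 with median scaling, and 0 and 0 without scaling. Its largest falls were miR-669b by 1.42 ± 0.36 and miR-669d by 0.94 ± 0.19, the latter at 0.10 with quantile normalization and in the deposited table. None of the 22 names from embryonic stem cell clusters were members. Of 20 names whose standing as miRNAs is doubtful, 12 were members, 1 higher (miR-685, adjusted p = 0.0670 without replicate 4 of 6 weeks) and 1 lower (miR-712, adjusted p from 0.0616 to 0.187 when replicate 1, 2 or 3 of 6 weeks or 2, 4 or 5 of day 7 was left out), with a median of -0.13 that was positive under 5 other scalings, with 3 to 7 higher and at most 1 lower. The 3 virus names that were tested had differences of -0.29, 0.06 and 0.10, none of them called.

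Day 14 lies between both ages and splits the comparison into 2 steps. From day 7 to day 14 miR-29a rose by 1.77 (adjusted p = 2.62e-06), and from day 14 to 6 weeks by a further 1.83 (adjusted p = 3.65e-06), while its day 1 to day 7 difference was 0.21 (adjusted p = 0.506). Conversely miR-218, an inhibitor of Slit and Robo signalling, differed by -0.09 from day 7 to day 14 (adjusted p = 0.859) and fell between day 14 and 6 weeks, where the difference was -2.01 (adjusted p = 1.51e-05). Its levels were 10.83, 10.84, 10.77, 10.72 and 10.59 at day 7 and 8.88, 8.87, 8.82 and 8.05 at 6 weeks, and over the whole interval it fell by 2.097 ± 0.30, with no overlap. For miR-100 the step to day 14 was 0.84 (adjusted p = 0.00081) and the later one 0.11 (adjusted p = 0.733), and for miR-486 0.96 (adjusted p = 0.00497) and 0.00 (adjusted p = 0.999). The hypoxia miRNA miR-210 fell by 0.48 ± 0.13 in all (0.15 on the 75th percentile of all names), with -0.44 at the first step (adjusted p = 0.00666) and -0.04 at the second (adjusted p = 0.863).

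Of the 15 largest falls, 13 were called at both steps, miR-136 and miR-380-3p being the exceptions. For miR-127 they were -1.36 and -1.704, for miR-335-5p -1.002 and -2.09 and for miR-551b -3.11 and -2.68, all called. Without the day 14 array that stood apart the first step was -3.87 for miR-551b, -1.57 for miR-127, -1.13 for miR-335-5p and 2.07 for miR-29a. These steps share arrays with the comparison itself and are no separate support for it. Whether an early and a late step differed from each other was not tested.

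**Figure D4:**
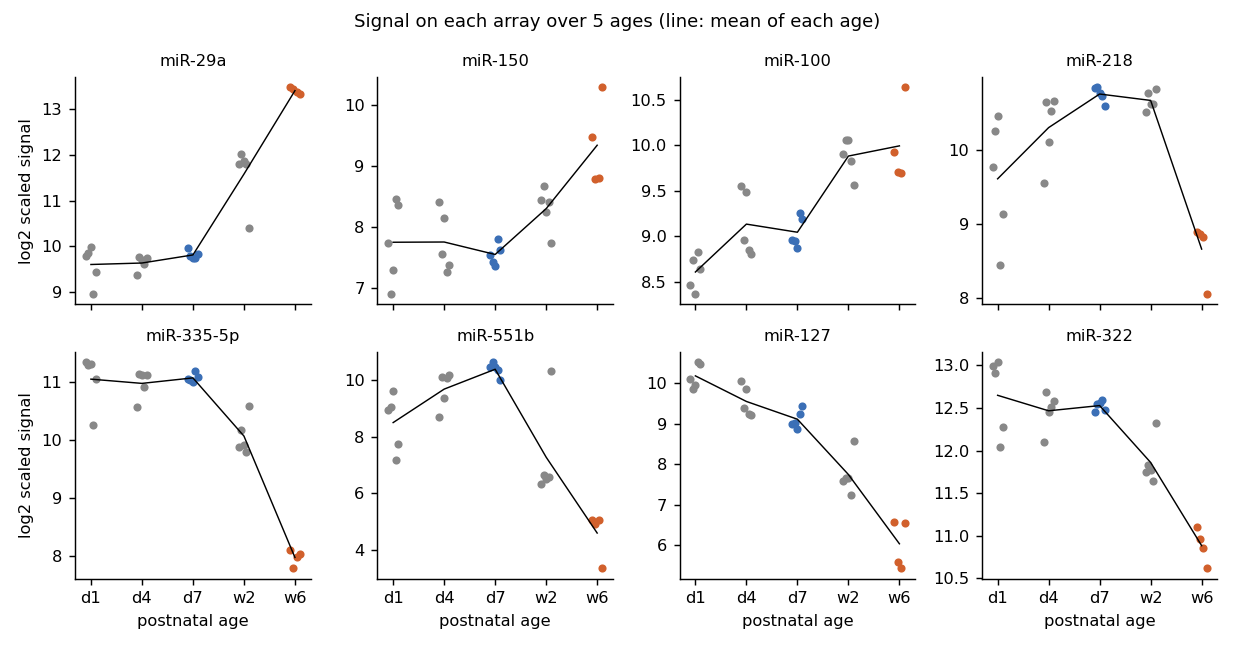
Log2 scaled signal of 8 members on each array at day 1, 4, 7, 14 (w2) and 6 weeks (w6), with day 7 and 6 weeks coloured and a line through the mean of each age; each panel has its own vertical axis. The rise of miR-29a and the falls of miR-335-5p, miR-551b, miR-127 and miR-322 ran over both later steps, miR-218 fell after day 14, and 1 day 14 array lay near the day 7 values for miR-551b (10.32 against 6.31 to 6.64).

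In no list were 104 of the members, of which 13 rose and 32 fell, with a median of -0.20. Of these, 15 fell at least 2-fold; those that the rule for naming does not cover are named here after their values were seen. Of those named here the largest was that of miR-296-5p, from the imprinted Gnas locus, with -2.56 ± 0.28 (adjusted p = 3.46e-08), and its neighbour miR-298 had -1.63 ± 0.14 (adjusted p = 6.87e-10). Both arms of miR-455, a chondrocyte miRNA in an intron of the collagen gene Col27a1, fell, miR-455* by 2.09 ± 0.36 and miR-455 by 1.61 ± 0.30. Others were miR-135b with -2.33 ± 0.51, miR-324-5p with -1.55 ± 0.39, miR-700 with -1.39 ± 0.19, miR-149 with -1.36 ± 0.29, miR-340-5p with -1.25 ± 0.46 (adjusted p = 0.105 without replicate 4 of 6 weeks), miR-193b with -1.24 ± 0.28, miR-421 with -1.19 ± 0.17, let-7a* with -1.09 ± 0.32 and miR-701 with -1.08 ± 0.24. The miRNA miR-21, raised in fibrosis and injury, differed by 0.10 ± 0.33 (adjusted p = 0.806).

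Both arms of 65 hairpins were members. In 33 of them both arms were called in the same direction, 8 upwards and 25 downwards, in 17 only 1 arm was called and in 14 neither. In 1 hairpin the arms were called in opposite directions: miR-31, an epithelial and lymphatic miRNA, was at 7.47, 7.395, 7.31, 7.58 and 7.55 at day 7 and 7.72, 7.89, 7.87 and 8.23 at 6 weeks and rose by 0.46 ± 0.13 (adjusted p = 0.00513), whereas miR-31* went from 5.602, 5.52, 5.45, 5.59 and 5.62 to 4.89, 5.08, 4.89 and 4.58, and fell by 0.70 ± 0.21 (adjusted p = 0.0073), a direction that turned to 0.26 with quantile normalization and in the deposited table. It was singled out after these values were seen, and the difference between its arms was not tested.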

How the data were processed

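Total RNA from whole lung was labelled with Cy3 (100 ng) for 1-colour Agilent miRNA arrays, per the labels, and read with Agilent Feature Extraction 10.7.1.1, per the file headers and the submitters' processing notes. The deposited array files hold intensity values per spot and, as total gene signal, per miRNA, with no adjustment between arrays; detection was taken from the flag per miRNA in the same files. A series-wide table deposited by the authors gives log2 values with the same median (2.41) in every column and correlates at 0.994 to 1.00 with the array files; how it was scaled is not given in the sources used here, and it served as an alternative. The labels call arrays biological replicates and say no more of the animals, so p-values measure the spread between these samples.

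Arrays were scaled to their own 75th percentile over the 226 mouse miRNAs that all 24 arrays detected. A scaled signal below 2.27, the typical lowest signal flagged as detected, was raised to that floor (1.18 after taking log2). Values at the floor have no order. No miRNA spot was saturated. The 322 names detected on every array of at least 1 of the 5 ages were fitted with limma 3.58.1 in R 4.3.3 (all 24 arrays, ages as groups, eBayes, two-sided), with Benjamini-Hochberg adjustment over the 322 and calls at an adjusted p under 0.05; the fit was tested on simulated data. Errors after ± are standard errors unless SD is named. A fold of a miRNA that no array of the lower age detected is a bound, with each such array at the highest of the floor, its own signal and its lowest detected signal. Single values were compared by exact permutation with scipy 1.17.1 in Python 3.11.15. The number of arrays limits the precision.

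Named are the 15 largest rises and falls with no overlap between ages, up to 2 members per list and direction, and miRNAs of a short list; any others are marked. The members, lists and names were chosen with earlier results of these data known, and the lists follow textbook knowledge. Alternatives changed the scaling, floor, filter, background correction, blocks (slide, replicate number), fit and arrays. Correction by normexp was run on the spot medians with an offset of 50, an alternative chosen after seeing the data. Spot means were not used here. No genome was used; sequences and positions are RefSeq's (GRCm38.p6).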

Additional observations from a re-analysis of the deposited data

Results flagged for a closer look

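In 48 of the 243 examined age groups of a named miRNA, 1 array lay apart from the rest of its age by Dixon's criterion. Chance meets it in about 1 of 20 groups. That rate does not hold where the other arrays were raised to the floor, since any value above the floor then lies apart. Of the 48, 36 were at 6 weeks and 12 at day 7, and 30 belonged to replicate 4 of 6 weeks, the dimmest array. All values are log2 scaled signals.

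Replicate 4 of 6 weeks was the lowest of its age for miR-29b (9.73), miR-551b (3.34), miR-136 (2.83), miR-503 (6.01), miR-449a (8.45), miR-144 (6.60), miR-34b-5p (9.72), miR-34c (9.66), miR-21 (12.67), miR-218 (8.05), miR-340-5p (5.26), miR-324-5p (6.08), miR-455* (4.06) and miR-135b (1.18). It was the highest for miR-146a (11.10), miR-30c-2* (7.58), miR-106b* (1.91), miR-182 (5.66), miR-183 (6.78), miR-126-3p (15.65), miR-342-5p (4.73), miR-10a (12.07), miR-23a (14.94), miR-24 (14.26), miR-181d (7.15), miR-221 (9.85), miR-200b (12.16), miR-200c (11.46), miR-700 (1.79) and miR-455 (7.58).

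Replicate 1 of 6 weeks was the highest for miR-431 (2.40), miR-409-5p (1.55), miR-411* (2.54), miR-381 (1.74), miR-380-3p (1.19) and miR-382* (1.59), all from the Dlk1-Dio3 region, where the other 3 arrays were at or near the floor of 1.18. With those arrays at the floor, any value above it meets the criterion.

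At day 7, replicate 2 was the highest for miR-192 (6.89). At the same age, replicate 3 was the lowest for miR-222 (6.26), miR-126-5p (9.42) and miR-143 (11.50), replicate 4 was the lowest for miR-34b-5p (9.08), replicate 4 was the highest for miR-195 (11.89), miR-126-3p (15.06), miR-10a (10.82) and miR-130a (13.58), replicate 5 was the lowest for miR-324-5p (8.01), replicate 5 was the highest for miR-338-3p (7.72) and miR-205 (5.59).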

How the results depend on the processing

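Of the 182 called members 53 were higher and 129 lower. The split turned with the scaling: 114 were higher and 80 lower on the 75th percentile of all names, 90 higher with median scaling, 100 with quantile normalization and 102 in the deposited table, and 77 were lower without scaling. After normexp on the spot medians, chosen after seeing the data, 66 were called, 22 higher and 44 lower. Among names detected on all arrays 78 were lower. Leaving out each array in turn gave 167 to 184 calls, 43 to 53 higher and 118 to 141 lower. The replicate numbers did not pair the arrays: deviations of same-numbered arrays correlated at -0.20 to 0.60, and with the replicate number as a block 172 were called, 48 higher and 124 lower. With the slide as a block 54 were higher and 134 lower, with brightness as a covariate 75 and 146, and with the arrays of both ages alone 57 and 130.

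Of 3043 values of the 123 named miRNAs under the alternatives, 57 turned sign and 181 lost the call; the cause was not tested. On the 75th percentile of all names the values were 0.026 for miR-182, 0.18 for miR-183, 0.15 for miR-712, 0.35 for miR-92a, 0.20 for let-7e, 0.42 for miR-16, 0.49 for miR-126-5p, 0.061 for miR-143, 0.55 for miR-145, 0.15 for miR-210 and 0.16 for miR-181a. With quantile normalization and in the deposited table they were 0.024 and 0.024 for miR-15b*, 0.10 and 0.10 for miR-669d, 0.33 and 0.33 for miR-182, 0.21 and 0.21 for miR-183, 0.40 and 0.40 for miR-712, -0.42 and -0.048 for miR-451, 0.31 and 0.31 for miR-205, 0.26 and 0.26 for miR-145, -0.23 and -0.17 for miR-21, 0.11 and 0.11 for miR-210, and 0.26 and 0.26 for miR-31*. With median scaling and without scaling they were 0.13 and 0.033 for miR-92a, 0.19 and 0.10 for miR-16, 0.27 and 0.17 for miR-126-5p, and 0.32 and 0.23 for miR-145. With brightness as a covariate they were -0.090 for miR-451, 0.21 for miR-145, -0.23 for miR-1 and -0.19 for miR-21. After normexp they were -0.071 for miR-29b*, -0.13 for miR-29a*, -0.17 for miR-685, -0.0031 for miR-494 and -0.21 for miR-483. Over the arrays left out in turn the values spanned -0.21 to 0.25 for miR-494, -0.15 to 0.22 for miR-451, -0.17 to 0.12 for miR-221, -0.42 to 0.12 for miR-145 and -0.0095 to 0.35 for miR-21.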
